A study of Homo sapiens with 54 samples.

Results

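The 10 genes described here encode the main inducible and constitutive heat shock proteins and their co-chaperones, namely HSPA1A, HSPA1B, HSPA8, HSPH1, DNAJB1, HSPB1, HSP90AA1, HSPE1, HSPD1 and BAG3. They were taken by name from the 60676 genes listed for every library, and all 10 were found and passed the filter on low counts in each experiment. Their levels were compared in cells resembling human medium spiny neurons (hMSN-like cells), which had been differentiated from the human embryonic stem cell line H9, also called WA09, and then given dopamine or agonists of dopamine receptors. RNA-seq of 53 libraries was used here out of 54 labelled samples, in 18 groups and 4 experiments, and replicate 1 of 5 Day was not analysed here. In the 1 mM and the 1 µM experiment, cells received dopamine for 1 h on 1 day (Acute) or for 1 h a day on 5 days (Chronic), RNA was taken 1 h or 24 h after the dose, and each dose had its own PBS group. In the time course, cells received 1 mM dopamine on 2, 3, 4 or 5 days and RNA was taken 1 h after the last dose. These groups were compared with the ascorbic acid vehicle (AA). In the agonist experiment, cells received 50 µM SKF82958, an agonist of D1-type receptors, 50 µM Quinpirole, an agonist of D2-type receptors, or water. Groups held 3 libraries, except 5 Day with 2, and nothing in the labels gives separate differentiations, so p-values measure only the spread between these libraries, which may be technical.

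Per the study's methods, dopamine was dissolved in 100 µM ascorbic acid, acute doses were given at day 45 in vitro and chronic doses ended at day 50. The 1 mM and 1 µM experiments were set against PBS, and no ascorbic acid control is labelled for them. In these comparisons dopamine and ascorbic acid can therefore not be told apart. The age of the PBS cultures is not given in the sources used here, so the number of doses and the age of the culture cannot be told apart between Acute and Chronic groups. All cells came from 1 embryonic stem cell line and grew as mixed cultures, and in such bulk RNA fewer cells of a type and less RNA per cell cannot be told apart. The summed TPM (a read count scaled to gene length and library total) of 10 markers of striatal neurons, among them PPP1R1B and BCL11B, lay between 664 and 1729 per library. Markers of microglia summed to between 0 and 3.15 TPM. Markers of neural progenitors, 6 genes, summed to between 462 and 2605 TPM, so the cultures also held RNA of cells that were not neurons. The libraries held 137051 to 27702963 exon reads, the median being 11458465.

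Heat shock proteins are chaperones that bind unfolded or newly made proteins. HSP70 proteins take up exposed stretches of a client and cycle with ATP, J-domain proteins deliver clients and start the cycle, HSP110 proteins and BAG proteins release the nucleotide, HSP90 completes the folding of kinases and hormone receptors, small heat shock proteins hold clients without ATP, and chaperonins enclose them in a chamber. In stressed cells the transcription factor HSF1 binds heat shock elements, inverted repeats of GAA, in the promoters of many of these genes, and many neurons are known for a weak response of this kind compared with other cells.

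The start regions of 5 members are shown because they let a reader compare the near-identical HSPA1 pair, a small heat shock protein, HSP90AA1 and a member without a match. The sequences are the 250 bases before a RefSeq transcript start (GRCh38.p14), written 5′ to 3′ on the gene's strand, with matches to GAANNTTC or TTCNNGAA (a pair of heat shock units, read on both strands, overlapping matches joined) in capitals.
HSPA1A (chr6:31815293-31815542, plus strand): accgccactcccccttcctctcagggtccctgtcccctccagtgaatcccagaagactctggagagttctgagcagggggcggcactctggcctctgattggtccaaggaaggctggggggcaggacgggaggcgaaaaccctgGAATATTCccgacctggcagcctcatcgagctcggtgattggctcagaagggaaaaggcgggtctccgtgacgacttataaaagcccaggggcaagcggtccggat
HSPA1B (chr6:31827488-31827737, plus strand): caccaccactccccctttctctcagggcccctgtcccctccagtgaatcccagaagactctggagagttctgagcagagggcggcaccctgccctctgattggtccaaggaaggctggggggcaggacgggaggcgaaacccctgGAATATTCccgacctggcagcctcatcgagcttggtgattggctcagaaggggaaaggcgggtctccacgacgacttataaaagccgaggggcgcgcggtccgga
HSPB1 (chr7:76302423-76302672, plus strand): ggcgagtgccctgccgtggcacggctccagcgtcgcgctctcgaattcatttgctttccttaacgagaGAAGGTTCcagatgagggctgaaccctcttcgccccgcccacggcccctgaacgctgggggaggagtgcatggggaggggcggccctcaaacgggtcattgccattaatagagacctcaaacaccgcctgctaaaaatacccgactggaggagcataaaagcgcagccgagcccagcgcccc
HSP90AA1 (chr14:102087045-102087294, minus strand): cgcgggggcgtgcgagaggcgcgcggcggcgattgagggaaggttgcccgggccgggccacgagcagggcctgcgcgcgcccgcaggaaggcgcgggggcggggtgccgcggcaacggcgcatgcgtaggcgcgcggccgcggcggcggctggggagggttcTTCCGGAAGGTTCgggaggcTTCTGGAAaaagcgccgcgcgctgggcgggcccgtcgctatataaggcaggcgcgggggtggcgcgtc
HSPH1 (chr13:31162389-31162638, minus strand): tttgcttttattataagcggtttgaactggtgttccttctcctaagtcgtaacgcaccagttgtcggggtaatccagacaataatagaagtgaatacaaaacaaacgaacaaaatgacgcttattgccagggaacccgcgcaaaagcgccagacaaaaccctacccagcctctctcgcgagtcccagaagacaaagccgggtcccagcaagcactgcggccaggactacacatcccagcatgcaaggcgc
The promoters of HSPA1A and HSPA1B matched at 235 of 251 aligned positions (93.6%), and their match to the pair began 106 and 105 bases before the start. The HSPB1 match began 182 bases before the start. In HSP90AA1, whose window lies in an intron of its longer transcripts, matches began 88, 83 and 68 bases before the start. Of the 10 members, 7 had a match to the pair, each in 1 of the 14 promoters listed for the members, so that 7 of 14 promoters held one, and 11.6% of 35116 promoters in the table did. The longer run GAANNTTCNNGAA or TTCNNGAANNTTC, which includes the pair, was found for 3 members, HSPA8, HSP90AA1 and HSPD1, and in 0.441% of all promoters. No match was found in the windows of HSPH1, HSPE1 or BAG3, which says only that these letters were not in these windows.

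The members differed widely in level. HSPA8, the constitutive cytosolic HSP70, had a median of 958 TPM over the 53 libraries, and HSP90AA1, the inducible cytosolic HSP90, of 911 TPM. HSPB1, the small heat shock protein HSP27, and HSPD1, the mitochondrial chaperonin HSP60, followed with medians of 266 and 264 TPM. HSPA1B, an inducible HSP70, had 175 TPM, HSPE1, the co-chaperonin HSP10 that caps HSPD1, 120 TPM, DNAJB1, the J-domain partner of inducible HSP70, 79.4 TPM, and HSPH1, the HSP110 nucleotide exchange factor, 66.9 TPM. BAG3, which links HSP70 to small heat shock proteins and selective autophagy, had 24.6 TPM and HSPA1A, the other inducible HSP70, 10.2 TPM. Neighbours in this order overlapped over the libraries, except for HSP90AA1 and HSPB1 once replicate 1 of Quinpirole was left out, and TPM is a level per length, so the order holds for levels and not for differences between groups.

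HSPA1A (ENSG00000204389, chromosome 6, 31815543 to 31817946, plus strand, GRCh38) and HSPA1B (ENSG00000204388, chromosome 6, 31827738 to 31830254, plus strand) could not be read apart well. Of the stretches of 100 bases along their transcripts, 72.4% of those of HSPA1A also occur in HSPA1B, and 68.9% of those of HSPA1B in HSPA1A. A median of 15.2% of the exon reads given to HSPA1A and 27.4% of those given to HSPA1B were mapped uniquely, against 80.1% for HSPE1 and between 99.9% and 100% for the other members. The levels of each of the pair are therefore uncertain, and the sum of both genes was tested beside them. HSPD1 and HSPE1 lie head to head on chromosome 2 and overlap in the annotation, and DNAJB1 overlaps TECR on the other strand, so where reads of overlapping genes were counted is uncertain, since the strand used in counting is not given in the sources used here.

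**Figure D1:**
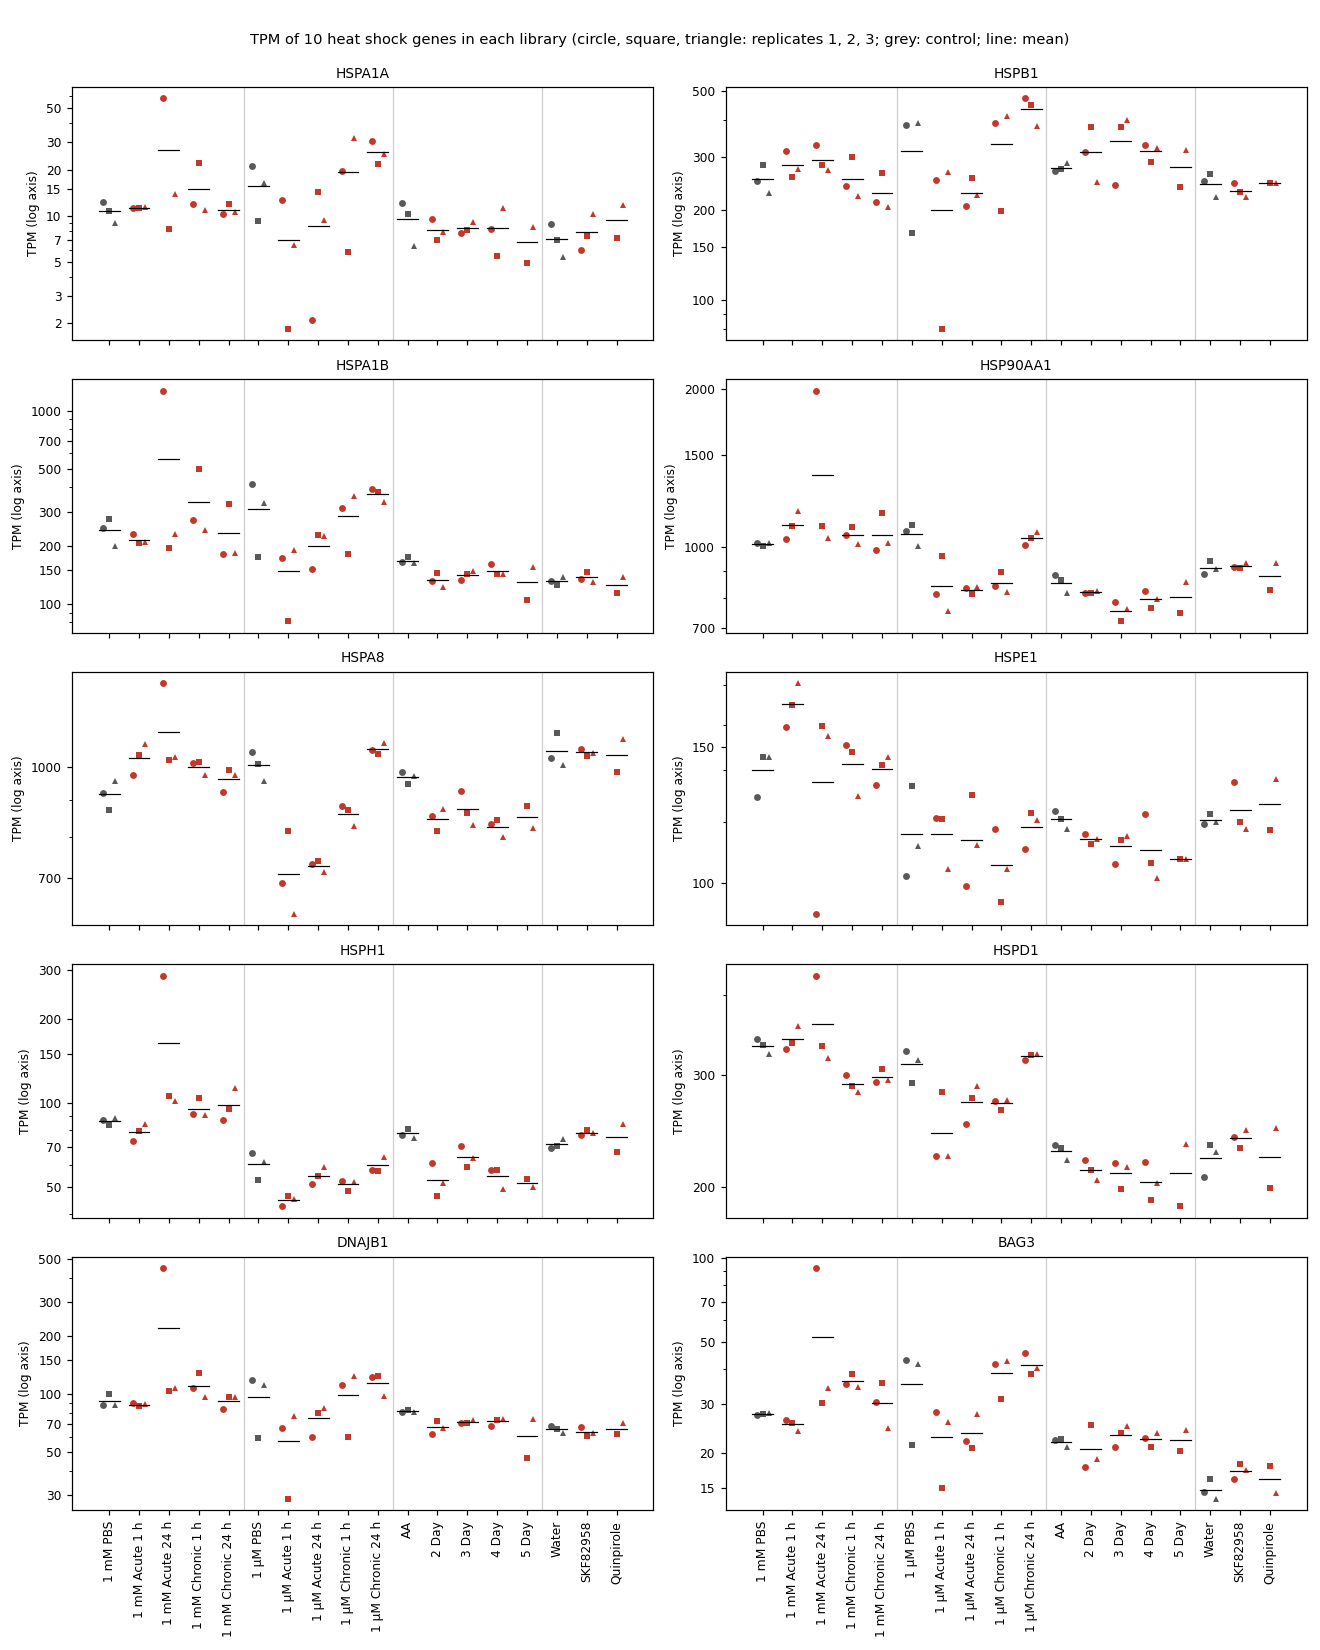
TPM (log axis) of each of the 10 genes in every library, by group, with replicate 1 of Quinpirole left out; points are libraries. Replicate 1 of 1 mM Acute 24 h is the highest library for 8 of the genes, HSPB1 and HSPE1 being the exceptions.

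Some libraries stood apart. In replicate 1 of 1 mM Acute 24 h, 5 of the 10 members were at least 2-fold above the mean of the other 2 libraries of the group on the log2(TPM + 1) scale, as were 12.3% of 19098 genes, while 6.96% of the genes were at least 2-fold below. HSPA1B stood at 1267 TPM in that library and at 195 and 230 TPM in the others, and DNAJB1 at 449 TPM against 103 and 107 TPM. BAG3 stood at 92.3 TPM against 30.2 and 34.3 TPM, and HSPH1 at 287 TPM against 106 and 102.2 TPM. So these 4 members were several times higher in 1 of the 3 libraries, and HSPE1 was lower there, at 91.2 TPM against 160 and 155 TPM. In the same library the general and striatal markers of neurons summed to 772 TPM, against 1320 and 1500 TPM. Mitochondrial genes took 0.826% of its exon reads, against 2.49% and 2.58%. Other chaperones were higher there too, among them HSPA4L, an HSP110 relative, at 181 TPM against 20.3 and 23.4 TPM, and HSPA5, the HSP70 of the endoplasmic reticulum, at 1764 TPM against 616 and 732 TPM (both chosen after their values were seen). Whether these values have a common source was not tested, and the members' results in the 1 mM experiment are given with and without this library.

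Replicate 1 of Quinpirole held 137051 exon reads, and 96.7% of its gene reads were in introns. HSPA1A, DNAJB1, HSPD1 and BAG3 were listed at 0 in it and HSPA8 at 19.9 TPM from 3 reads, so results on Quinpirole are also given without it. In the 1 µM experiment, the replicates numbered 2 of PBS, Acute 1 h and Chronic 1 h had 12.4%, 12.6% and 12.8% of exon reads from mitochondrial genes, and replicate 1 of Acute 24 h 10.3%, while the other 11 libraries had 4.25% to 7.50%. The first 3 of these were also the lowest of their group for HSPA1A, HSPA1B, DNAJB1, HSPB1 and BAG3.

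The first comparison set the members 1 h after a single dose of 1 mM dopamine against PBS. HSPA8 stood at 977, 1040 and 1077 TPM in Acute 1 h and at 920, 872 and 958 TPM in PBS. HSPE1 stood at 159, 170 and 181 TPM against 129, 145 and 145 TPM. HSP90AA1 stood at 1035, 1096 and 1174 TPM against 1017, 1003 and 1020 TPM. For these 3 genes every dosed library lay above every PBS library, as for 23.5% of genes, and HSPA1B, DNAJB1 and BAG3 did not follow. HSPA1B stood at 229, 206 and 208 TPM against 246, 276 and 198 TPM, DNAJB1 at 89.3, 86.0 and 88.5 TPM against 87.8, 99.3 and 87.3 TPM, and BAG3, lower in all dosed libraries as were 30.2% of genes, at 26.3, 25.7 and 24.0 TPM against 27.4, 27.7 and 27.8 TPM. None of the 10 members passed edgeR's quasi-likelihood test with Benjamini-Hochberg adjustment (adjusted p under 0.05), which 16% of 17804 genes passed. HSPA8 was the 1 member with an unadjusted p under 0.05, and DESeq2 passed 1 member and 20.5% of genes. The log2(fold change) of HSPA8 was 0.23 ± 0.08 (SE, n = 3 and 3, adjusted p = 0.059 by edgeR), that of HSPA1B -0.10 ± 0.52 and that of DNAJB1 0.01 ± 0.37.

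All 5 groups of an experiment shared 1 estimate of the spread, so the replicate that stood apart widened the errors of this comparison without being part of it. Without it, HSPA8 (0.22 ± 0.06, adjusted p = 0.0067 by edgeR) and HSPE1 (0.33 ± 0.08, adjusted p = 0.0032) passed as higher, as 2 of 10 members, where 39.8% of genes passed in either direction and 19.9% as higher. BAG3, HSPH1, DNAJB1, HSPA1A and HSPA1B did not pass without it either. The share of gene reads in introns was 12.3% to 13.2% in Acute 1 h and 19.5% to 21.8% in PBS, and with total gene reads (exon plus intron reads) in place of exon reads 5 members passed as higher, where 47.2% of genes passed, although introns held a median of at most 8.24% of the gene reads of any member. In Acute 1 h the progenitor markers summed to 1565 to 1644 TPM against 1447 to 1557 TPM in PBS, the astrocyte markers to 106 to 111 TPM against 115 to 151 TPM and the interneuron markers to 25.1 to 33.6 TPM against 34.2 to 62.0 TPM. The part of the intron share and of these markers was not tested.

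**Figure D2:**
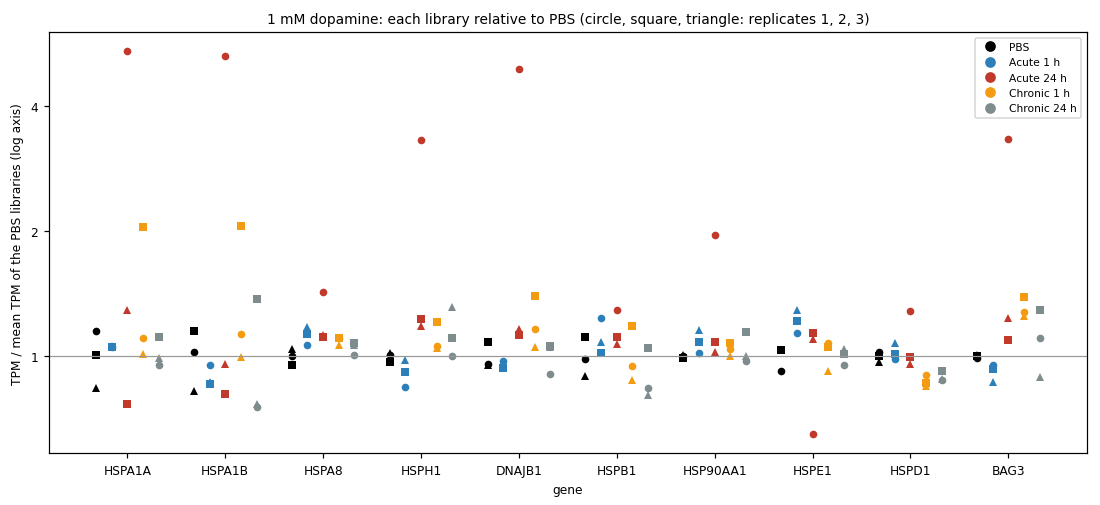
TPM of each member in every library of the 1 mM experiment divided by its mean over the 3 PBS libraries (log axis); points are libraries and colours are groups. Replicate 1 of Acute 24 h lies far above the other libraries for HSPA1A, HSPA1B, DNAJB1, HSPH1 and BAG3, while among the remaining libraries replicate 2 of Chronic 1 h is the highest for HSPA1B.

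Given 24 h after the dose, the values of the inducible members turned on 1 library. In Acute 24 h the log2(fold change) to PBS was 1.10 ± 0.49 for HSPA1A, 1.07 ± 0.37 for DNAJB1, 1.03 ± 0.52 for HSPA1B, 0.77 ± 0.26 for HSPH1 and 0.74 ± 0.28 for BAG3, with adjusted p-values of 0.13, 0.064, 0.18, 0.056 and 0.078 (edgeR, n = 3 and 3). None of the 10 members passed, where 15.5% of genes did, while 4 had an unadjusted p under 0.05 and DESeq2 passed 3, with 22.9% of genes. Without replicate 1 none passed either and 1 had an unadjusted p under 0.05, where 22.3% of genes passed, and the values of HSPA1B and DNAJB1 became -0.23 ± 0.27 and 0.14 ± 0.10. HSPH1, at 106 and 102.2 TPM in the remaining libraries against 87.4, 83.8 and 88.4 TPM in PBS, then had 0.22 ± 0.10 (adjusted p = 0.11 by edgeR). DNAJB1, BAG3, HSPA8 and HSP90AA1 also lay above every PBS library in both remaining libraries, together with HSPE1, as did 35.5% of genes. Against Acute 1 h, none of the 10 passed in Acute 24 h with or without replicate 1, where 3.49% and 9.3% of genes did; 5 and 3 members had an unadjusted p under 0.05, and DESeq2 passed 3 with all libraries, and 13.6% of genes.

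After 5 daily doses of 1 mM dopamine, HSPD1 was the member that passed. It stood at 300, 287 and 282 TPM in Chronic 1 h and at 329, 336 and 358 TPM in Acute 1 h, so every chronic library lay below every acute library. PBS lay with Acute 1 h, at 341, 334 and 323 TPM, and above every Chronic 1 h library, as for 15.6% of genes. Chronic 1 h was lower than Acute 1 h by a log2(fold change) of -0.34 ± 0.08 (adjusted p = 0.012 by edgeR, n = 3 and 3), and HSPD1 was the 1 of 10 members that passed there, where 11.3% of genes passed. The call was lost without replicate 3 of Acute 1 h or without replicate 2 or 3 of Chronic 1 h, over a range of -0.37 to -0.29 and adjusted p-values of 0.00035 to 0.080. Against PBS, Chronic 1 h had a value of -0.24 ± 0.08 for HSPD1 (adjusted p = 0.12). Chronic 24 h, at 292, 306 and 294 TPM and below every PBS library as were 10.8% of genes, had -0.19 ± 0.08 (adjusted p = 0.37).

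In these comparisons with PBS, none of the 10 members passed at Chronic 1 h, where 2.08% of genes passed, 1 had an unadjusted p under 0.05 and DESeq2 passed 1, with 5.83% of genes. None passed at Chronic 24 h, where 0.663% of genes passed, 1 had an unadjusted p under 0.05 and DESeq2 passed 0, with 2.37% of genes. Without replicate 1 of Acute 24 h, HSPD1 passed as lower in both (-0.24 and -0.19, adjusted p = 0.0065 and 0.044 by edgeR), where 18.4% and 8.48% of genes passed. BAG3, at 35.4, 38.5 and 34.6 TPM in Chronic 1 h against 27.4, 27.7 and 27.8 TPM in PBS, then passed as higher (0.34, adjusted p = 0.045). HSPE1, the partner of HSPD1, passed as lower in Chronic 1 h than in Acute 1 h without that library (-0.35, adjusted p = 0.0027), as did HSPD1 (-0.33, adjusted p = 0.00035), and BAG3 as higher (0.42, adjusted p = 0.010), where 34% of genes passed. These 3 of 10 members are a share near that of all genes in the same fit, and at Chronic 1 h and Chronic 24 h against PBS 2 and 1 of 10 passed.

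HSPA1B did not separate the chronic groups, with 272, 496 and 240 TPM in Chronic 1 h and 182, 330 and 184 TPM in Chronic 24 h, where replicate 2 was the highest of both. Between Chronic 1 h and Acute 1 h the markers of other cells and the share of gene reads in introns moved as well. That share was 20.6% to 20.9% in Chronic 1 h and 12.3% to 13.2% in Acute 1 h, and with total gene reads 5 members passed, where 40.1% of genes did. All 6 progenitor markers summed to 1232 to 1357 TPM in Chronic 1 h and 1565 to 1644 TPM in Acute 1 h. The 5 astrocyte markers summed to 194 to 206 TPM against 106 to 111 TPM. For the 4 oligodendrocyte markers the sums were 131 to 137 TPM against 90.6 to 105 TPM. For the 6 mesenchymal markers they were 83.3 to 121 TPM against 73.3 to 76.0 TPM. The general and striatal markers of neurons summed to 1342 to 1405 TPM against 1470 to 1609 TPM. The part of these shifts in the difference of HSPD1 was not tested.

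At 1 µM dopamine, HSPA1B was lower 1 h after a single dose. It stood at 172, 81.1 and 189 TPM in Acute 1 h and at 419, 175 and 332 TPM in PBS. In both groups replicate 2 was the lowest, and the groups overlapped because replicate 2 of PBS lay below 1 of the dosed libraries. The log2(fold change) was -1.04 ± 0.22 (adjusted p = 0.013 by edgeR, n = 3 and 3), a fold of 0.487, and HSPA1B was the 1 of 10 members that passed, where 5.77% of genes did. It also met the rule for a DEG, a log2(fold change) of 1 or more in either direction with a mean TPM of at least 1 in the higher group, as 2.41% of genes did. The sum of HSPA1A and HSPA1B gave -1.04 ± 0.23 (adjusted p = 0.017), so the call held for both copies together. It was lost without replicate 1 or replicate 3 of PBS, over a range of -1.22 to -0.82 and adjusted p-values of 0.0070 to 0.071, and in a fit of the 2 groups alone.

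Each of the other members was lower on average too. DNAJB1 stood at 66.4, 28.6 and 76.5 TPM against 118, 58.7 and 111 TPM (-0.74 ± 0.23, adjusted p = 0.078 by edgeR). BAG3 stood at 28.0, 14.9 and 25.8 TPM against 43.1, 21.4 and 41.8 TPM (-0.60 ± 0.19, adjusted p = 0.078). As for HSPA1B, these groups overlapped through replicate 2 of PBS. HSPA8 stood at 688, 814 and 624 TPM against 1050, 1012 and 958 TPM, and HSPH1 at 42.7, 46.5 and 45.5 TPM against 66.6, 53.1 and 61.7 TPM. These 2 members, HSP90AA1 and HSPD1 lay below PBS in every library, as did 7.48% of genes. All 10 values were below 0, with a median of -0.54 against 0.02 over all genes tested, and 6 had an unadjusted p under 0.05, while DESeq2 passed 3, with 10.7% of genes.

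Without the replicates numbered 2 of all 1 µM groups, 7 members passed as lower, where 8.24% of genes passed in either direction and 4.2% as lower. They were HSPA1B (-1.0), DNAJB1 (-0.63), BAG3 (-0.61), HSPA8 (-0.56), HSPB1 (-0.53), HSPH1 (-0.49) and HSPD1 (-0.47), with adjusted p-values from 0.00040 to 0.033 by edgeR. HSPE1 (0.13), HSP90AA1 (-0.35) and HSPA1A (-0.94) did not pass, so HSPE1 was above 0 in this fit. This fit rests on 2 libraries a group, of which the mitochondrial share in PBS and Acute 1 h lay between 4.25% and 7.50%. The 3 markers of interneurons summed to 0 to 1.93 TPM in Acute 1 h and 2.74 to 3.53 TPM in PBS, and the share of gene reads in introns was 20.2% to 31.2% against 22.3% to 23.6%.

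At 24 h after the single dose of 1 µM, values still lay below PBS. HSPA8 stood at 732, 741 and 715 TPM (-0.53 ± 0.20) and HSP90AA1 at 836, 814 and 840 TPM against 1076, 1103 and 1007 TPM in PBS (-0.43 ± 0.21), with adjusted p-values of 0.20 and 0.33 by edgeR. These 2 genes and HSPD1 lay below every PBS library, as did 9.27% of genes. All 10 values were below 0, with a median of -0.44, but none of the 10 passed, where 3.31% of genes did; 3 had an unadjusted p under 0.05, DESeq2 passed 1 and 7.26% of genes, and 4 passed as lower without the replicates numbered 2 (HSPA1B, DNAJB1, HSPB1 and BAG3), where 6.28% of genes passed and 3.45% as lower. That fit keeps replicate 1 of Acute 24 h, with 10.3% of exon reads from mitochondrial genes, and leaves out replicate 2, with 6.25%. HSPE1 was above 0 in it (0.11). The astrocyte markers summed to 77.8 to 91.1 TPM in Acute 24 h against 64.0 to 72.0 TPM in PBS, and their part was not tested. Between Acute 24 h and Acute 1 h none of the 10 passed by edgeR and none by DESeq2, 0 had an unadjusted p under 0.05, and 0.592% of genes passed by edgeR and 2.7% by DESeq2.

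After 5 daily doses of 1 µM, HSPA1B overlapped with PBS. It stood at 313, 182 and 361 TPM in Chronic 1 h, again with replicate 2 as the lowest, and at 393, 381 and 335 TPM in Chronic 24 h. HSPB1 stood at 474, 450 and 382 TPM in Chronic 24 h against 387, 167 and 390 TPM in PBS. None of the 10 members passed at Chronic 1 h or at Chronic 24 h by edgeR or by DESeq2 and 0 had an unadjusted p under 0.05, where 2.58% and 0% of genes passed by edgeR and 5.72% and 0.00605% by DESeq2. In Chronic 1 h, HSPA8, HSPH1, HSP90AA1 and HSPD1 still lay below every PBS library, as did 11.1% of genes. In Chronic 24 h, 608 genes had an unadjusted p under 0.05. HSPA1A stood at 30.7, 21.6 and 25.4 TPM in Chronic 24 h, above every PBS library (21.2, 9.27 and 16.4 TPM) as were 3.36% of genes.

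Chronic 1 h was tested directly against Acute 1 h. HSPA1B was higher by 0.99 ± 0.22 (adjusted p = 0.045 by edgeR, n = 3 and 3), with 313, 182 and 361 TPM against 172, 81.1 and 189 TPM, groups that overlapped through replicate 2 of Chronic 1 h. It was the 1 of 10 members that passed, where 1.2% of genes did. BAG3 had 0.80 ± 0.19 (adjusted p = 0.055) and the HSPA1 sum 1.01 ± 0.23 (adjusted p = 0.050), and neither passed. The call on HSPA1B was lost in 13 of the 15 fits that left out 1 library each, over a range of 0.78 to 1.15 and adjusted p-values of 0.025 to 0.19, and it is a weak one. Without the replicates numbered 2, HSPA1B (0.91), DNAJB1 (0.73), BAG3 (0.67) and HSPB1 (0.64) passed as higher, where 2.13% of genes passed and 0.998% as higher. This comparison shares its Acute 1 h libraries with the comparison of Acute 1 h with PBS.

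The doses were compared by the difference between their changes at Acute 1 h, in 1 fit of 30 libraries with each dose set against its own PBS. All 10 differences were above 0 (1 mM minus 1 µM), with a median of 0.65 against -0.01 over all genes. HSPA8 had 0.74 ± 0.22 (adjusted p = 0.071 by edgeR) and HSPB1 0.88 ± 0.34 (adjusted p = 0.21). None of the 10 members passed by edgeR, where 2.01% of genes did, and none by DESeq2, which passed 4.4% of genes, while 3 had an unadjusted p under 0.05. Without replicate 1 of 1 mM Acute 24 h, HSPA8 passed (0.74, adjusted p = 0.039), where 5.1% of genes did, and with total gene reads 7 members passed as higher, where 27.9% of genes passed. The experiments were separate, so dose and experiment cannot be told apart in the levels, and the difference of changes carries the spread of both.

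**Figure D3:**
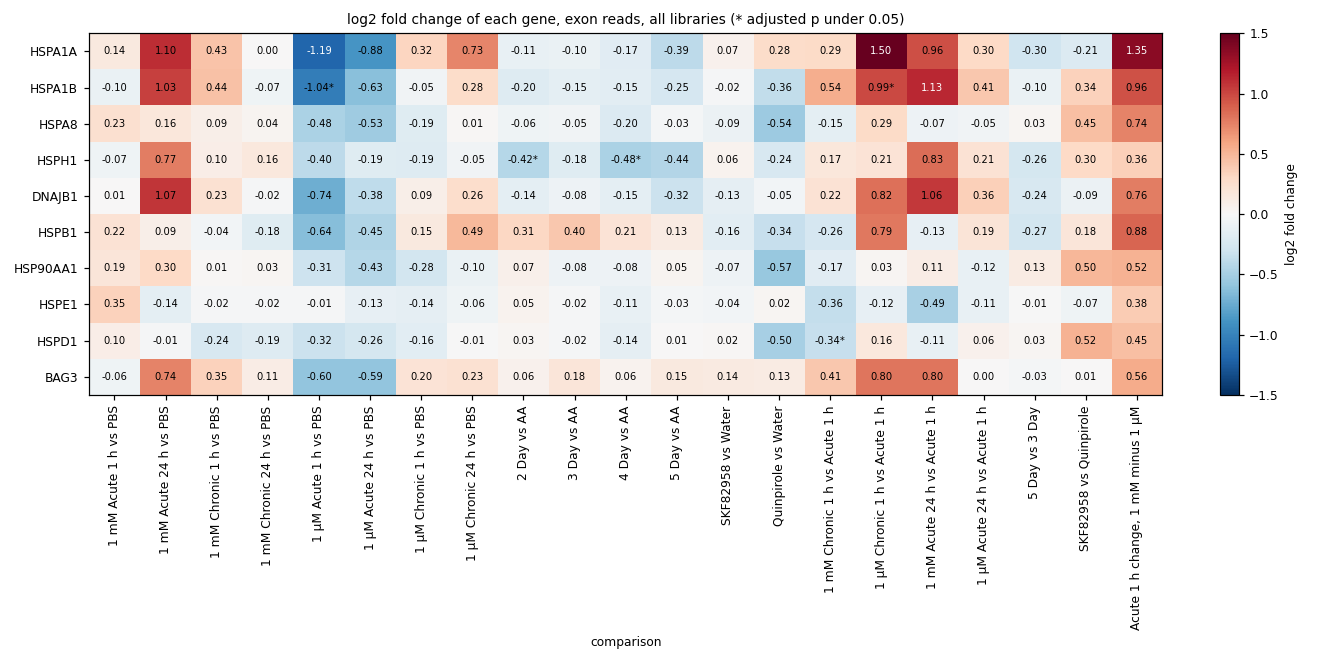
log2(fold change) of the 10 genes (rows) in 21 comparisons (columns), with stars where the adjusted p was under 0.05 by edgeR. Stars appear for HSPA1B and HSPH1 in 2 comparisons each and for HSPD1 in 1, and both columns of a single 1 µM dose against PBS are below 0 for all 10 genes.

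In the time course, HSPH1 was the member that passed. It stood at 77.2, 81.2 and 75.4 TPM in AA and at 61.0, 46.6 and 51.9 TPM after 2 days. It stood at 70.2, 59.3 and 63.8 TPM after 3 days, at 57.9, 57.8 and 49.2 TPM after 4 days and at 53.6 and 50.0 TPM after 5 days. Every dosed library lay below every AA library, and the 3 Day libraries came closest to AA. The log2(fold change) was -0.42 ± 0.11 at 2 Day (adjusted p = 0.048 by edgeR), -0.18 ± 0.11 at 3 Day (adjusted p = 0.38), -0.48 ± 0.11 at 4 Day (adjusted p = 0.026) and -0.44 ± 0.13 at 5 Day (adjusted p = 0.10), with n = 3 and 3, or 2 and 3 at 5 Day. HSPH1 was the 1 of 10 members that passed at 2 Day and at 4 Day, where 3.88% and 4.38% of genes passed. The call was lost in 10 of the 14 fits without 1 library at 2 Day (-0.51 to -0.36, adjusted p-values 0.0081 to 0.23) and in 6 of 14 at 4 Day (-0.52 to -0.41, 0.0033 to 0.13). The progenitor markers summed to 1298 to 1441 TPM at 2 Day and 1346 to 1441 TPM at 4 Day, against 1442 to 1512 TPM in AA. At 2 Day the oligodendrocyte markers summed to 41.0 to 58.3 TPM against 60.1 to 66.9 TPM and the endothelial markers to 8.72 to 18.3 TPM against 4.11 to 8.09 TPM. At 4 Day the mesenchymal markers summed to 331 to 362 TPM against 174 to 232 TPM and the astrocyte markers to 173 to 194 TPM against 154 to 161 TPM, and the part of these shifts was not tested. The 5 Day group had the dose, days and sampling hour of 1 mM Chronic 1 h, where HSPH1 was not lower. There it stood at 90.5 to 105 TPM, above every PBS library (83.8 to 88.4 TPM). HSPA8, also below AA at 5 Day, stood at 976 to 1018 TPM there against 872 to 958 TPM in PBS. BAG3 lay above PBS and HSPD1 below it, and both overlapped with AA at 5 Day. The source of these differences was not tested.

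Of the other members, none passed at any time by edgeR. HSPA1B stood at 165, 175 and 162 TPM in AA and at 132, 145 and 123 TPM after 2 days, and lay below every AA library at each time, as did HSPA8 and DNAJB1. On the TPM scale, 5, 7, 5 and 5 members lay below every AA library at 2, 3, 4 and 5 Day, where 29.4%, 23.0%, 16.3% and 17.8% of genes did. DNAJB1 stood at 46.6 and 74.2 TPM at 5 Day against 80.5, 82.7 and 80.4 TPM in AA, with a log2(fold change) of -0.32 ± 0.09 (adjusted p = 0.11). The low library, replicate 2, had 12.1% of exon reads from mitochondrial genes, against 5.70% to 8.38% in the other libraries of the time course, and the part of that was not tested. After TMM scaling the directions were mixed, with 5, 2, 2 and 4 of the 10 values above 0 at 2, 3, 4 and 5 Day and medians of -0.01, -0.07, -0.14 and -0.03. HSPB1 stood at 243, 380 and 401 TPM at 3 Day against 271, 275 and 287 TPM (0.40 ± 0.17, adjusted p = 0.17), and its libraries overlapped. None of the 10 passed at 3 Day by edgeR or by DESeq2, where 7.37% and 9.1% of genes passed and 1 member had an unadjusted p under 0.05. None passed at 5 Day by edgeR, where 1.63% of genes passed, 3 had an unadjusted p under 0.05 and DESeq2 passed 1, with 2.92% of genes. Between 5 Day and 3 Day none passed by either tool, 1 had an unadjusted p under 0.05 and 1.16% of genes passed by edgeR and 3.89% by DESeq2.

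**Figure D4:**
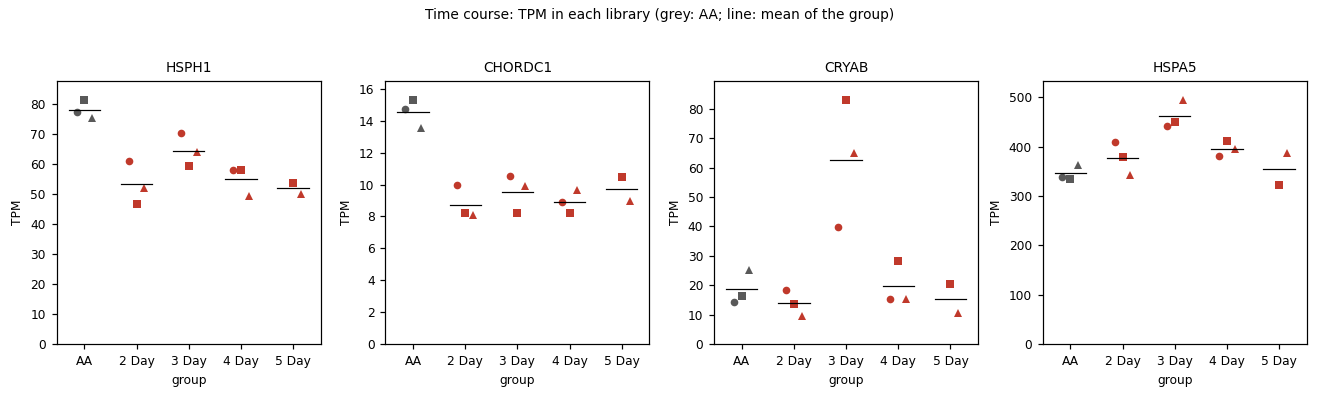
TPM of HSPH1, CHORDC1, CRYAB and HSPA5 in every library of the time course, from AA to 5 Day; points are libraries. HSPH1 and CHORDC1 lie below AA at every time, while CRYAB and HSPA5 are highest at 3 Day.

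With the agonists no member passed. HSPH1 stood at 77.3, 80.0 and 78.1 TPM with SKF82958 and at 69.0, 70.1 and 74.6 TPM with water, above every control as for 17.3% of genes, and its log2(fold change) was 0.06 ± 0.49. HSPA1B stood at 135, 146 and 130 TPM with SKF82958 against 131, 126 and 138 TPM. With SKF82958 and with Quinpirole none of the 10 members passed by edgeR or by DESeq2 and 0 had an unadjusted p under 0.05, where 0.0124% and 0% of genes passed by edgeR and 0.0372% and 0.736% by DESeq2. Without replicate 1 of Quinpirole 0.624% and 0.184% of genes passed, and still none of the members and 0 at an unadjusted p under 0.05. The agonists were also compared with each other, where none of the members passed by edgeR or by DESeq2, 0 had an unadjusted p under 0.05, and 0% and 0.381% of genes passed. For HSPA8 the log2(fold change) with SKF82958 was -0.09 with an SE of 1.03 from all libraries and of 0.07 without that replicate.

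Further chaperone genes were taken from 9 lists with 87 genes. Of the 12 chaperones of the endoplasmic reticulum (ER), 12 rose at 1 mM Acute 24 h, where 15.5% of genes passed, with a median of 0.93 against 0.02 over all genes tested, and 10 without replicate 1, where 22.3% of genes passed, with a median of 0.48. PDIA3, a disulfide isomerase, rose by 0.53 ± 0.08 (adjusted p = 0.0020 by edgeR), HYOU1, the HSP110 of the ER, by 0.99 ± 0.19 (adjusted p = 0.0072) and SDF2L1 by 1.12 ± 0.18 (adjusted p = 0.0029). Without replicate 1 these 3 genes kept their call (0.50, 0.62 and 0.97). At Acute 1 h 3 of the 12 rose, where 16% of genes passed, and 9 without replicate 1 of Acute 24 h, where 39.8% did. At 3 Day 10 of 12 rose, where 7.37% of genes passed, among them HSPA5 by 0.52 ± 0.08 (adjusted p = 0.0020), with 442, 450 and 494 TPM against 339, 335 and 362 TPM in AA. At 1 µM, HSPA5 fell instead, with 398, 306 and 363 TPM at Acute 1 h and 258, 302 and 287 TPM at Acute 24 h against 580, 463 and 506 TPM in PBS (-0.53 ± 0.11 and -0.92 ± 0.11, adjusted p = 0.013 and 0.00059). At 1 µM Acute 1 h HSPA5 was the only 1 of the 12 ER chaperones that fell, where 5.77% of genes passed. At 1 µM Acute 24 h CALR fell as well (-0.54, adjusted p = 0.021 by edgeR), where 3.31% of genes passed.

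Of the other HSP90 genes and co-chaperones (13 genes), CHORDC1, an HSP90 co-chaperone, was lower in the time course, as HSPH1 was. It stood at 9.96, 8.20 and 8.07 TPM at 2 Day, at 10.6, 8.20 and 9.90 TPM at 3 Day and at 8.88, 8.23 and 9.64 TPM at 4 Day, against 14.7, 15.3 and 13.5 TPM in AA. It fell by 0.61 ± 0.13, 0.51 ± 0.13 and 0.68 ± 0.13 on the log2 scale (adjusted p = 0.021, 0.029 and 0.011 by edgeR), and was the only gene of its list that passed at these times. At 1 mM Acute 1 h, where it was looked at after its values were seen, it stood at 13.8, 15.2 and 14.6 TPM against 23.4, 25.0 and 22.9 TPM in PBS and passed without replicate 1 of Acute 24 h (-0.66, adjusted p = 2.9e-05). HSPA4L, of the other HSP70 family (10 genes, 9 tested), fell at 3 Day by 0.33 ± 0.09 on the log2 scale (adjusted p = 0.044).

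CRYAB, the small heat shock protein alpha-B crystallin, was the one gene of its list that passed (9 genes, 4 tested). It stood at 101.6, 134 and 96.0 TPM in 1 mM Chronic 1 h and at 108, 103 and 114 TPM in Chronic 24 h, against 54.1, 56.6 and 64.7 TPM in PBS, so the groups did not overlap. It rose by 0.87 ± 0.15 and 0.86 ± 0.15 (adjusted p = 0.010 and 0.022 by edgeR) and by 0.74 ± 0.15 at Acute 24 h (adjusted p = 0.0088). Without replicate 1 of Acute 24 h these values were 0.87, 0.86 and 0.75, and CRYAB also passed at Acute 1 h (0.43, adjusted p = 0.020). In the time course it rose at 3 Day alone, to 39.9, 82.9 and 64.8 TPM against 14.5, 16.4 and 25.1 TPM in AA (1.85 ± 0.34, adjusted p = 0.0049), and 5 Day was lower than 3 Day by -1.96 ± 0.41 (adjusted p = 0.038). At 5 Day it stood at 10.6 and 20.3 TPM and overlapped with AA. The rise over PBS at 1 mM Chronic 1 h, with the same dose and days, was thus not seen against AA. The 6 markers of mesenchymal cells summed to 262 to 452 TPM at 3 Day and to 174 to 232 TPM in AA, and the 5 astrocyte markers to 162 to 183 TPM against 154 to 161 TPM, and their part was not tested. In 1 mM Chronic 1 h the astrocyte markers summed to 194 to 206 TPM against 115 to 151 TPM in PBS. In Chronic 24 h they summed to at least 152 TPM. The oligodendrocyte markers summed to 75.6 to 90.9 TPM at 3 Day against 60.1 to 66.9 TPM in AA. At 1 mM they summed to 131 to 137 TPM in Chronic 1 h and 107 to 138 TPM in Chronic 24 h. PBS had 80.8 to 96.3 TPM, and Acute 24 h overlapped with it (58.7 to 127 TPM). The part of these shifts was not tested.

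Other known HSF1 targets (8 genes) went in both directions. IER5, a regulator of HSF1, rose at 1 mM Acute 1 h to 227, 236 and 227 TPM from 132, 126 and 130 TPM. Its log2(fold change) there was 0.89 ± 0.17 (adjusted p = 0.0046 by edgeR), and 0.88 without replicate 1 of Acute 24 h. At 1 mM Chronic 1 h it rose by 0.82 ± 0.17 (adjusted p = 0.027). It rose at 2 Day by 0.34 ± 0.08 (adjusted p = 0.021) and at 4 Day by 0.30 ± 0.08 (adjusted p = 0.036). At 1 µM Acute 24 h it was lower in the fit without the replicates numbered 2 (-0.51, adjusted p = 0.047 by edgeR). P4HA1, a collagen prolyl hydroxylase, fell after single doses of both strengths and was also lower at 1 mM Chronic 24 h. On the log2 scale it fell by 1.15 ± 0.22 at 1 mM Acute 1 h (adjusted p = 0.0049) and by 1.33 ± 0.17 at 1 µM Acute 1 h (adjusted p = 0.00035). At 1 mM Chronic 24 h it had -1.22 ± 0.22 (adjusted p = 0.030 by edgeR). Of the heat shock factors (6 genes, 5 tested), HSF4 was lower at 1 mM Acute 1 h, with -1.54 ± 0.33 on the log2 scale (adjusted p = 0.0077), or -1.55 without replicate 1 of Acute 24 h, where P4HA1 had -1.17. HSF1 passed there only without replicate 1 of Acute 24 h (-0.22, adjusted p = 0.013).

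Of the 13 other cytosolic J-domain proteins, 2 rose and 2 fell at 1 mM Acute 1 h, where 16% of genes passed, and 4 rose and 4 fell without replicate 1 of Acute 24 h, where 39.8% did. DNAJB2 fell by 0.62 ± 0.09 and DNAJC6, the auxilin that uncoats clathrin vesicles, by 0.51 ± 0.09 on the log2 scale (adjusted p = 0.00069 and 0.0027 by edgeR), and DNAJC6 also fell at 1 µM Acute 1 h, by 0.74 ± 0.14 (adjusted p = 0.0051). Of the 8 other HSP70 co-chaperones, STUB1, the ubiquitin ligase CHIP, rose by 0.42 ± 0.07 (adjusted p = 0.0031) and HSPBP1 by 0.42 ± 0.12 (adjusted p = 0.037) at 1 mM Acute 1 h, as 2 of 8, against 16% of genes. Of the 8 subunits of the cytosolic chaperonin CCT, 3 rose there, CCT5 by 0.32 ± 0.08 (adjusted p = 0.015), and 4 were lower in Chronic 1 h than in Acute 1 h, CCT5 by -0.40 ± 0.08 (adjusted p = 0.0062), as HSPD1 was, where 11.3% of genes passed. Without replicate 1 of Acute 24 h DNAJB2, DNAJC6, STUB1, HSPBP1 and CCT5 also passed at 1 mM Acute 1 h (-0.63, -0.52, 0.41, 0.40 and 0.31). No gene of any list passed with SKF82958 or Quinpirole, with or without replicate 1 of Quinpirole.

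**Figure D5:**
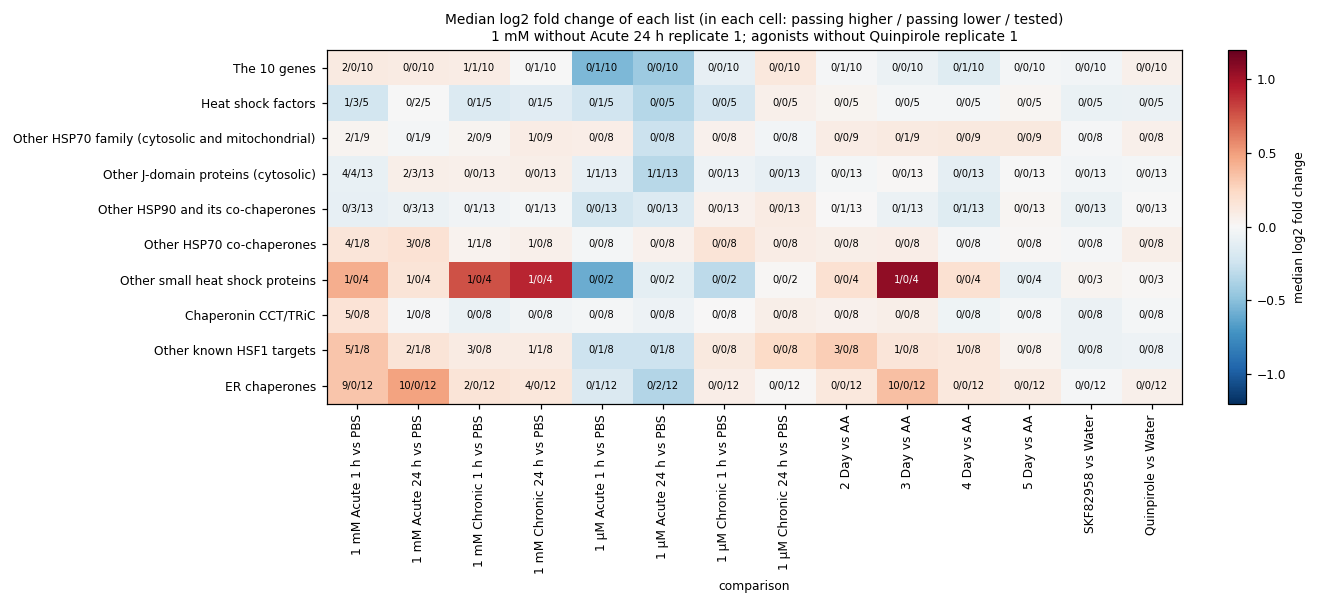
Median log2(fold change) of the 10 genes and of 9 further chaperone lists (rows) in 14 comparisons with controls (columns); each cell gives the number of genes that passed as higher, the number that passed as lower and the number tested. The 1 mM columns are without replicate 1 of Acute 24 h and the agonist columns without replicate 1 of Quinpirole, and ER chaperones have the highest counts, with 9 and 10 of 12 higher after a single 1 mM dose.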

How the data were processed

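Total RNA of hMSN-like cells was sequenced by the authors, who used CLC Genomics Workbench 21.0.5 with default settings to map reads to GRCh38 (Ensembl annotation 102). For each of 60676 genes the authors deposited counts of exon reads, intron reads, their sum (total gene reads) and uniquely mapped reads. The deposited TPM values were made by the authors from exon reads and exon length. Sequencing was done by a pair of providers, and which library went to which is not given in the sources used here, so no batch was modelled.

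Exon read counts were tested with edgeR 4.0.16 (filterByExpr with a minimum count of 10 and a minimum total of 15, TMM, glmQLFit, glmQLFTest) in R 4.3.3, with all groups of an experiment in 1 fit and Benjamini-Hochberg adjustment over all genes tested. The SE was taken from the log2(fold change) and the F statistic, as the size of the first over the root of the second. The alternatives were DESeq2 1.42.0, DESeq2's size factors, other filters, other kinds of reads, the summed HSPA1 pair, only the groups compared, a replicate block, the rule for a DEG, and each library left out in turn. Chosen after seeing the data were uniquely mapped exon reads of the pair and fits that left out replicate 1 of 1 mM Acute 24 h, replicate 1 of Quinpirole or the 1 µM replicates numbered 2. The members and all gene lists were chosen with earlier results of these data known. All 10 members are named, and from the other lists up to 4 genes per list and comparison with the smallest adjusted p. The test was checked on simulated data for 1 mM Acute 1 h. There 194 of 200 genes changed by 1.5 on the log2 scale were found among 17510 genes, with 16 false calls. Such a change is larger than the values of HSPA8, HSPA1B and DNAJB1 in that comparison. The recovery therefore does not describe changes of their size. For SKF82958 against water, 200 of 200 were found among 16125 genes, with 20 false calls. The latter simulation left out replicate 1 of Quinpirole, so it does not describe the agonist fit with all libraries. For a gene of 2000 exon bases, the limit that a count of 0 allows (3 reads) ran from a TPM of 0.2075 (most exon reads) to 0.955 (fewest, Quinpirole replicate 1 aside) and covers counting error only. Tables were handled in Python 3.11.15 with pandas 2.3.3 and numpy 2.4.6. Promoters were read from RefSeq.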

Additional observations from a re-analysis of the deposited data

Results flagged for a closer look

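A pair of results differed between groups that had been dosed differently, by a direct test of that difference (edgeR's quasi-likelihood test with Benjamini-Hochberg adjustment). HSPD1 was lower in 1 mM Chronic 1 h than in 1 mM Acute 1 h by a log2(fold change) of -0.34 (adjusted p = 0.012, lower in 3 of 3 chronic libraries). It was 1 of 10 members, where 11.3% of genes passed, and the call was lost in 3 of the 15 fits without 1 library. HSPA1B was higher in 1 µM Chronic 1 h than in 1 µM Acute 1 h by 0.99 (adjusted p = 0.045), with 2 of 3 chronic libraries above every acute library. It was 1 of 10 members, where 1.2% of genes passed. That call was lost in 13 of the 15 fits without 1 library, and the sum of the HSPA1 pair did not pass. The acute groups were taken at day 45 and the chronic groups at day 50, so dosing and age cannot be told apart in either.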

How the results depend on the processing

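Of 5201 values of members under all alternatives, 4986 kept their direction and side of the threshold, 170 passed where they had not, 40 no longer passed and 5 changed sign with a call. The 5 came with counts that include introns: at 1 mM Acute 1 h BAG3 had 0.28 with total gene reads without replicate 1 of Acute 24 h, and at 1 mM Acute 24 h HSPE1 had 0.41 there, while HSPD1 had 0.26 with total gene reads, 0.18 with these without that replicate and 0.30 with unique gene reads. The cause was not tested.

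The number of members that passed depended on the kind of reads. With total gene reads (in brackets the share of all genes) it was 5 at 1 mM Acute 1 h (47.2%), 9 at 1 mM Acute 24 h (43.8%), 5 for 1 mM Chronic 1 h against Acute 1 h (40.1%), 4 at 1 µM Acute 1 h (5.83%), 2 for 1 µM Chronic 1 h against Acute 1 h (1.3%), 1 at 5 Day (1.02%) and 7 for the difference between doses (27.9%). With unique gene reads it was 5, 8, 5, 4, 0, 1 and 7 (48.9%, 48.3%, 41.7%, 6.1%, 1.27%, 1.2% and 28.3%), and with total gene reads without replicate 1 of 1 mM Acute 24 h 7 at 1 mM Acute 1 h (60.9%), 8 at Acute 24 h (50%), 5 for Chronic 1 h against Acute 1 h (54.6%) and 2 at Chronic 1 h (9.3%). With DESeq2 it was 1 at 1 mM Acute 1 h, 3 for 1 mM Acute 24 h against Acute 1 h, 3 at 1 mM Acute 24 h, 1 at 1 mM Chronic 1 h, 3 at 1 µM Acute 1 h, 1 at 1 µM Acute 24 h, 3 for 1 µM Chronic 1 h against Acute 1 h (4.22%) and 1 at 5 Day. In fits of only the groups compared it was 3 at 1 mM Acute 1 h (45.5%), 9 for 1 mM Chronic 1 h against Acute 1 h (44%), 2 at 1 mM Chronic 1 h (25.4%), 0 at 1 µM Acute 1 h (0.339%), 0 for 1 µM Chronic 1 h against Acute 1 h (0%) and 2 at 4 Day (13.5%). Without a filter on low counts it was 1 for 1 mM Acute 24 h against Acute 1 h (1.73%), 2 at 1 mM Acute 24 h (7.08%), 2 at 2 Day (4.69%), 1 at 3 Day (6.35%) and 2 at 5 Day (2.96%), and with at least 10 reads in every library 2 for 1 µM Chronic 1 h against Acute 1 h (1.95%). Under the rule for a DEG 0 members were left for Chronic 1 h against Acute 1 h at both doses, at 2 Day and at 4 Day. With the HSPA1 pair summed 0 passed for 1 µM Chronic 1 h against Acute 1 h, and with uniquely mapped exon reads the sum passed in 2 comparisons instead of 1. Without the 1 µM replicates numbered 2 it was 7 at Acute 1 h, 4 at Acute 24 h and 4 for Chronic 1 h against Acute 1 h.

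The labels give only a replicate number, and whether libraries of the same number share a source is not known. Over pairs of libraries from different groups, 3 of 30 same-numbered pairs at 1 mM and 14 of 30 at 1 µM deviated together (r over 0.1). In the time course 4 of 26 did and with agonists 1 of 9. Of the differently numbered pairs 4 of 60, 25 of 60, 6 of 52 and 2 of 18 did. At 1 µM the replicates numbered 2 of PBS, Acute 1 h and Chronic 1 h shared a high mitochondrial share, so a factor shared by number stays possible there. With the replicate number as a block (replicate block) 3 members passed at 1 µM Acute 1 h (5.66%), 2 for 1 µM Chronic 1 h against Acute 1 h (1.13%), 0 at 2 Day (2.55%) and 1 for the difference between doses (1.62%).

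Over fits that each left out 1 library the count ranged at 1 mM from 0 to 2 at Acute 1 h, 0 to 4 at Acute 24 h, 0 to 2 at Chronic 1 h and 0 to 1 at Chronic 24 h, and against Acute 1 h from 0 to 3 for Chronic 1 h and 0 to 6 for Acute 24 h. At 1 µM it ranged from 0 to 4 at Acute 1 h, 0 to 2 at Acute 24 h and 0 to 2 for Chronic 1 h against Acute 1 h, and in the time course from 0 to 1 at 2 Day, 0 to 1 at 3 Day, 0 to 2 at 4 Day, 0 to 1 at 5 Day and 0 to 1 for 5 Day against 3 Day. Where a fit left 1 library at 5 Day, that library was assumed to vary like the other groups. The count ranged from 0 to 2 for the difference between doses and stayed at 0 in the other comparisons. With 3 libraries a group, and the shared spread widened by 1 library at 1 mM and 1 with agonists, a member that did not pass cannot be said not to have changed.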

Other observations

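Over 51 libraries, leaving out replicate 1 of 1 mM Acute 24 h and of Quinpirole, the correlation between members within experiments was uneven. It is given as a description only, since the libraries share controls and may share batches (log2(CPM + 1) of exon reads, centred within each experiment). Pearson's r was 0.88 for HSPA1B and DNAJB1, 0.86 for HSPA8 and HSP90AA1, 0.84 for DNAJB1 and HSPB1 and 0.80 for HSPA1A and HSPA1B. HSPE1 and BAG3 had the lowest value, -0.35.

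The genes whose profile over the same 51 libraries was most like the mean of the 10 members were COL9A3 (r = 0.82), CDKN1A (0.81), WASF2 (0.80), IGFBP2 (0.79) and TRIP10 (0.79). With all 53 libraries they were CCT4, AHSA1, SH3BP4, STIP1 and SLC44A2, each with r = 0.97, values that the shallow Quinpirole library enters.

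The 10 members together took 0.308% to 0.426% of exon reads in the PBS, AA and water libraries and in the 1 mM chronic groups, 0.248% to 0.347% in 1 µM Acute 1 h, 0.545% in replicate 1 of 1 mM Acute 24 h and 0.0175% in replicate 1 of Quinpirole.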
